A study of Mus musculus with 38 samples.

Results

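Striatal RNA of XXY males was set against that of XX males. By their labels, animals of both groups are male and have a pair of X chromosomes, and they differ in the presence of a Y chromosome. Arrays were taken by their sample codes: 9 begin with XXYSry and 8 with XXSry, together 17 of the 38 animals of the series. All animals were MF1 mice aged 152 days, and the labels call them biological replicates. The labels name the genotypes as XXY male, XX male, XY male and XX female. Sry, the gene that starts testis development, is written into the codes of all 3 male groups and not into those of the XX females. The labels say neither on which chromosome Sry lies in any group nor whether hormones were measured or equalised. The 11 XY males and 9 XX females with a signal column entered the model and are given beside the main comparison where their values bear on it.

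In mammals with more than one X chromosome, the noncoding RNA Xist coats all but one of them and silences most of their genes. A small set of X-linked genes escapes this silencing, and several of them have a related partner on the Y chromosome, among them Kdm6a with Uty, Ddx3x with Ddx3y and Eif2s3x with Eif2s3y. The striatum is the input nucleus of the basal ganglia, built mainly from inhibitory projection neurons of a direct and an indirect pathway, with few interneurons.

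The arrays of these groups differed in more than genotype. Every sample code carries an a, a b or both letters after its number, and the labels do not explain them. All 8 XX males had letter a alone, while among XXY males 2 had letter a, 6 had both letters and 1 had letter b. The labelled batch was better balanced, with 5 and 4 XXY males and 5 and 3 XX males in batches 1 and 2. The 90th percentile of the raw signal had a lowest, median and highest value of 721, 1108 and 1433 in XXY males and 632, 762 and 937 in XX males, and detected probes numbered 10089 to 11767 and 10634 to 11254 per animal. The letter term itself passed for 1244 of 9455 features (limma, adjusted p below 0.05). Each difference below was therefore estimated with that term and the labelled batch in the model. Since all XX males had letter a, the letter effect came from XXY and XY males. It was assumed to be the same in XX males, which was not tested. Among XXY and XY males, none had letter a alone in batch 2 and none had letter b alone in batch 1. Letter and batch were thus partly confounded in the animals that gave the letter effect. Differences within batch 2 extend that effect to letter a, which no XXY or XY male there had alone. XXY male replicate 5 stood apart. It had the fewest detected probes, a median correlation of 0.905 with its own group (group median 0.974) and a score of -78.8 on the first principal component, where the others of both groups lay between -30.4 and 28.0.

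Striatal marker genes were detected, though detection alone does not set striatum apart from neighbouring tissue. Ppp1r1b, which encodes the dopamine-regulated phosphatase inhibitor DARPP-32, and the dopamine receptor genes Drd1 and Drd2 were detected in all 9 XXY males and all 8 XX males. Markers of neighbouring tissue were detected in all 17 animals too, including the choroid plexus gene Ttr and the vesicular glutamate transporter genes Slc17a6 and Slc17a7. In whole tissue, fewer cells of a type and less RNA per cell cannot be told apart.

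Very few features separated XXY males from XX males. Of 9455 features, 2 were higher in XXY males and 0 were lower (limma, adjusted p below 0.05), which is 0.0212% of those tested. At an unadjusted p below 0.05 there were 590 features, 6.24% of all, with 316 higher (3.34%) and 274 lower (2.9%). The median difference of all features was -0.00 on the log2 scale and 4683, or 49.5%, were positive. Both features that passed are probes for which the annotation used here gives no gene name, and they are called by their probe identifiers.

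The probe ILMN_1241001 was detected in 9 of 9 XXY males and 0 of 8 XX males. It had normalized log2 signals of 7.91, 7.39, 7.44, 7.40, 8.24, 7.71, 6.94, 7.51 and 7.13 in XXY males 1 to 9, against 4.61 ± 0.10 (SD, n = 8) in XX males, whose lowest and highest values were 4.52 and 4.79. The groups were far from overlapping, and the XX male values were those of a probe not well above background. The modelled difference was 3.30 (SE 0.15, 95% interval 2.99 to 3.60, adjusted p = 5.12e-18). As a ratio it can only be bounded, at least 3.33-fold, from the XXY male mean and the dimmest signal that counted as detected on the XX male arrays. It was 3.11 within batch 1 and 3.51 within batch 2.

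In the other groups this probe was detected in 12 of 12 XY males, for 1 of which only detection p-values were available, and in 0 of 9 XX females. The difference of XXY males from XY males was 0.04 (95% interval -0.20 to 0.28). XX females ranged from 4.56 to 4.70, inside the range of XX males, and neither group had a detected signal. For XX males against XX females the model still gave -0.86 (SE 0.22), which did not pass (limma, adjusted p = 0.561). These groups share no code letter, and the letter term of this probe was -0.87 (SE 0.19). The value of -0.86 is therefore not a difference in measured signal. XXY males with letter a alone averaged 7.66, those with both letters 7.54 and the 1 with letter b 7.13. Without the letter term the difference between XXY and XX males was 2.93, and among letter a arrays of batch 1 alone, 2 XXY males and 5 XX males, it was 3.06 (limma, adjusted p = 0.00148). Among all 25697 probes of the array, ILMN_1241001 was the only one detected in every XXY male and in no XX male, and 0 probes were detected in every XX male and in no XXY male.

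The second probe, ILMN_2899599, was also higher in all animals with a Y chromosome than in all animals without one, but some animals without one had a detected signal. Its log2 signal had a lowest, median and highest value of 9.97, 10.3 and 11.5 in XXY males and 4.57, 5.62 and 6.65 in XX males, so the groups lay far apart. The highest XXY value belonged to replicate 5. The modelled difference was 4.61 (SE 0.33, 95% interval 3.94 to 5.29, adjusted p = 4.48e-12), and it was 4.18 within batch 1, 5.05 within batch 2, 4.23 among the letter a arrays of batch 1 and 4.52 without XXY male replicate 5. Only 3 of the 8 XX males had a detected signal, so the size of the difference rests partly on values near background. In XX females, which like XX males lack a Y chromosome, it was detected in 9 of 9 at a mean of 7.18 ± 0.81 (SD, n = 9), with values from 6.06 to 8.41; XY males ranged from 9.67 to 10.9. The modelled difference of XX males from XX females, groups that share no code letter, was -1.28 (SE 0.49) and did not pass (adjusted p = 0.561). XXY males were 3.34 above XX females (SE 0.36, 95% interval 2.61 to 4.06) and -0.05 from XY males (95% interval -0.58 to 0.47).

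**Figure D1:**
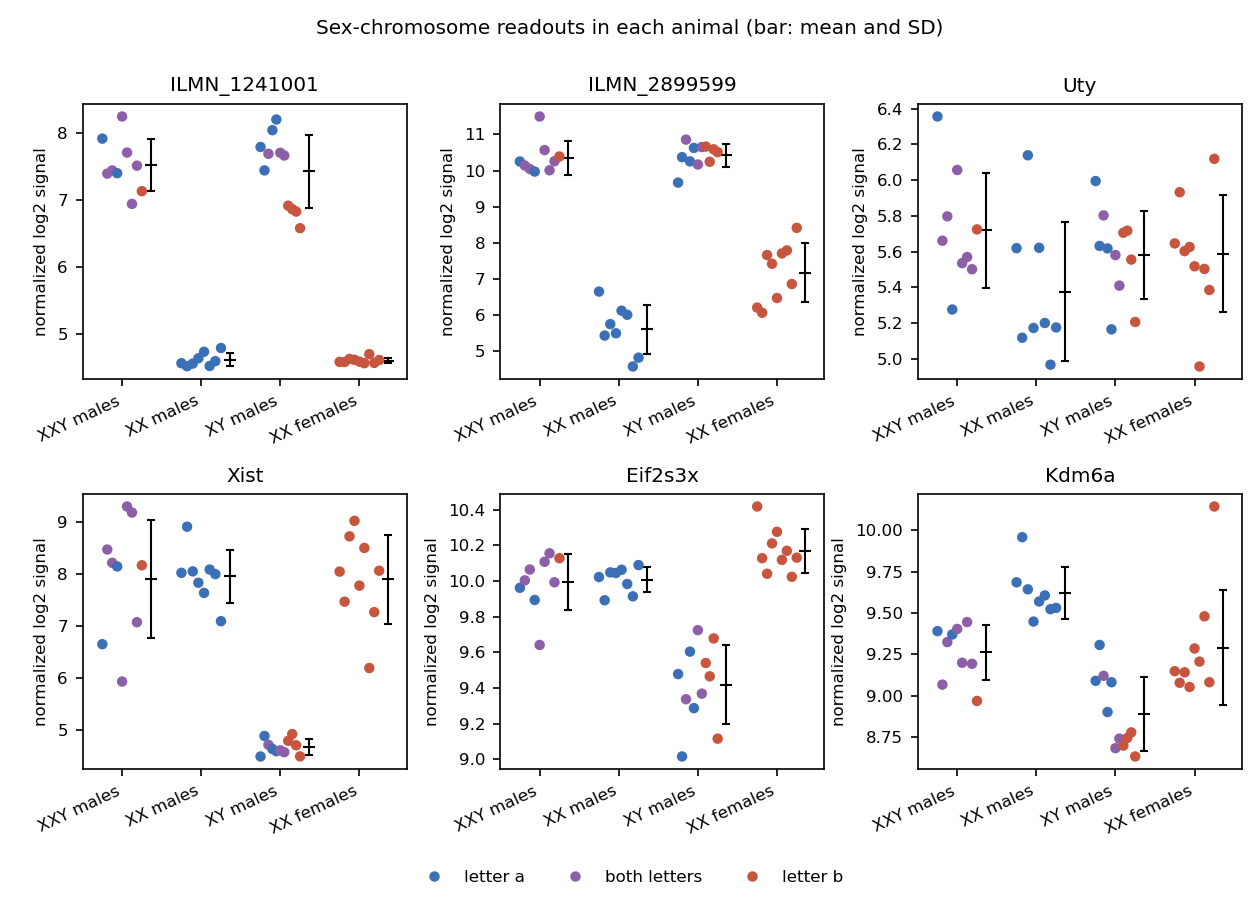
Normalized log2 signal (vertical axes) of the 2 probes that passed and of Uty, Xist, Eif2s3x and Kdm6a in each animal, with XXY males at the left, then XX males, XY males and XX females; points are coloured by code letter and bars give the mean and SD. XXY males lie with XY males for both probes and with XX males and XX females for Xist, while Uty lies between 4.96 and 6.36 in every group.

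Of 16 Y-linked genes listed, Uty, the Y-linked relative of the histone demethylase gene Kdm6a, was the 1 member tested. It had a lowest, median and highest log2 signal of 5.28, 5.66 and 6.36 in XXY males and 4.97, 5.19 and 6.14 in XX males. The groups overlapped, and the probe was detected in 3 of 9 XXY males and 1 of 8 XX males, close to the limit of detection. The difference was 0.27 (SE 0.17, 95% interval -0.08 to 0.62, adjusted p = 0.689). Uty averaged 5.58 in XY males and 5.59 in XX females. The modelled difference of XX males from XY males was -0.15 (95% interval -0.49 to 0.20). Some XX females, which lack a Y chromosome, also had a detected signal, so this probe did not set apart the animals with a Y chromosome.

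The X-linked partners of Y-linked genes had 0 of 5 tested members above 0, 0 that passed and a median difference of -0.18. Kdm6a ranged from 8.97 to 9.45 in XXY males and from 9.45 to 9.96 in XX males. No XXY male reached the lowest XX male, although these edges nearly touched, and the modelled difference was only -0.17 (SE 0.13, 95% interval -0.44 to 0.09). It was -0.31 within batch 1 and -0.21 within batch 2, and a less bright Kdm6a probe gave -0.14 (SE 0.15). Eif2s3x, which encodes a subunit of translation initiation factor eIF2, had an average log2 signal of 9.99 ± 0.16 in the 9 XXY males, against 10.0 ± 0.07 in the 8 XX males (SD). Its difference was -0.06 (95% interval -0.26 to 0.15).

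The RNA helicase gene Ddx3x had a lowest, median and highest value of 5.86, 6.16 and 6.85 in XXY males and 6.29, 6.83 and 7.50 in XX males, overlapping distributions with the XXY males toward the lower end. Its difference was -0.52 (SE 0.25, adjusted p = 0.689). The zinc finger transcription factor gene Zfx was at 7.46, 8.88 and 9.51 in XXY males and 8.92, 9.39 and 9.85 in XX males, with a difference of -0.51 (SE 0.23, adjusted p = 0.689). The modelled difference of Zfx was -0.12 within batch 1 and -0.98 within batch 2. The value within batch 2 depends on the letter term, since no XXY male there had letter a alone. With array weights Zfx passed at -0.61 (limma, adjusted p = 0.0397). Rbmx, which encodes an RNA-binding protein of splicing, differed by -0.18 (SE 0.17). Ddx3x and Zfx were the members at an unadjusted p below 0.05.

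Xist was detected in all 17 animals, with a lowest, median and highest value of 5.93, 8.17 and 9.31 in XXY males and 7.09, 8.01 and 8.92 in XX males, and the XXY males spanned the whole XX male range. The difference was -0.23 (SE 0.42, 95% interval -1.08 to 0.62), with -0.68 within batch 1 and 0.75 within batch 2. Set against XY males, which stood at 4.67 ± 0.15 (SD, n = 11), the difference was 3.25 for XXY males and 3.48 for XX males; these comparisons share the XY males. Among genes listed for X inactivation and escape, 2 of 7 were above 0, 0 passed and the median was -0.17. Besides those above they were Bgn, which encodes the matrix proteoglycan biglycan, at -0.50 (SE 0.29), the mitochondrial carbonic anhydrase gene Car5b at 0.05 (SE 0.16) and Pbdc1 at 0.11 (SE 0.13). Erdr1, the tested member of the pseudoautosomal list, ranged from 7.64 to 9.94 in XXY males and from 7.44 to 9.39 in XX males. Its plain medians were 8.78 and 8.58, while the modelled difference was -0.22 (SE 0.46). That difference was 1.02 within batch 2 and 0.32 without the letter term.

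The medians of X-linked and of autosomal genes both lay near 0. Of 285 X-linked named genes 150 were above 0 and 0 passed, with a median of 0.01, and of 8155 autosomal genes 4004 were above 0 and 0 passed, with a median of -0.01. At an unadjusted p below 0.05 there were 14 of 285 X-linked genes and 510 of 8155 autosomal genes, beside 6.24% of all features. The smallest adjusted p of any named gene was 0.305.

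**Figure D2:**
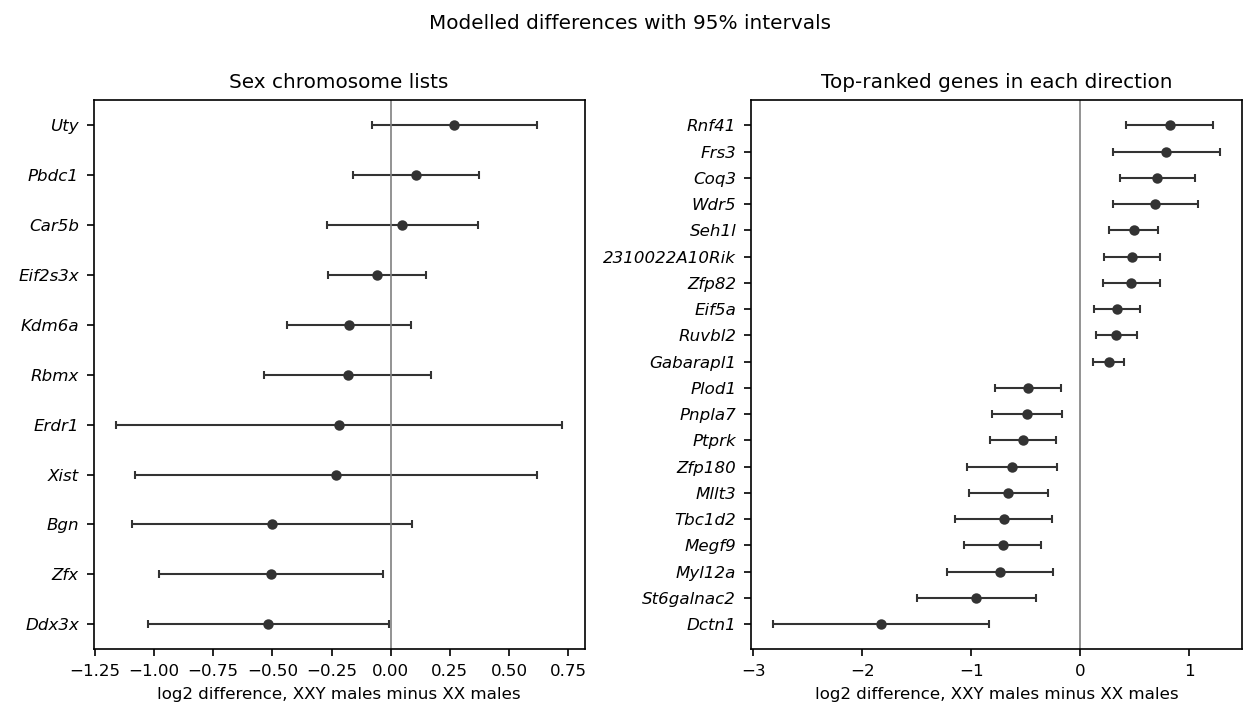
Modelled log2 difference, XXY males minus XX males (horizontal axes), with its 95% interval for the tested sex chromosome genes (left) and for the 10 best-ranked named genes in each direction (right). The intervals of Ddx3x and Zfx end just below 0 on the left, and the ranked genes at the right were chosen by p, so their distance from 0 is no test.

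No named gene passed, and the 10 with the smallest p in each direction are a ranking only. First among the higher ones was Seh1l, which encodes a protein of the nuclear pore and of the GATOR complex of nutrient sensing. Its lowest, median and highest values were 8.29, 8.60 and 9.04 in XXY males and 7.83, 8.00 and 8.27 in XX males, which do not overlap. The difference was 0.49 (SE 0.11, adjusted p = 0.305), with 0.44 within batch 1 and 0.59 within batch 2. Wdr5, a core component of histone methyltransferase complexes, ranged from 6.79 to 7.86 in XXY males and from 5.79 to 6.77 in XX males, a difference of 0.69 (SE 0.19). Ruvbl2, an ATPase of chromatin remodelling complexes, ranged from 8.47 to 9.03 in XXY males and from 8.03 to 8.39 in XX males, a difference of 0.33 (SE 0.09).

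Zfp82, a zinc finger gene, completed the ranked genes whose values did not overlap, with 6.51 to 7.01 in XXY males and 5.83 to 6.50 in XX males. Over all features, 12 had every XXY male above every XX male, 0.127% of those tested, and 5 had every XXY male below, 0.0529%. The other high-ranked genes overlapped between groups. They were Rnf41 (0.82), a ubiquitin ligase gene, Frs3 (0.79), an adaptor of growth factor receptors, Coq3 (0.71), a methyltransferase of coenzyme Q synthesis, 2310022A10Rik (0.48), the translation factor gene Eif5a (0.34) and the autophagosome gene Gabarapl1 (0.26). Of these, Frs3 was at 0.32 within batch 1 and 1.86 within batch 2.

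Of the 10 lower-ranked genes, Dctn1, which encodes the largest subunit of the dynein activator dynactin, had the largest difference. Its values were widely spread, from 4.70 to 7.93 in XXY males and from 6.23 to 8.35 in XX males, and they overlapped. The difference was -1.83 (SE 0.49, adjusted p = 0.486), -0.93 within batch 1 and -2.80 within batch 2. Megf9, a transmembrane protein gene, had the smallest p of the 10, with a lowest, median and highest value of 6.79, 7.11 and 7.70 in XXY males and 7.03, 7.60 and 8.01 in XX males (-0.71, SE 0.17, adjusted p = 0.408). The others lay between -0.95 for the sialyltransferase gene St6galnac2 and -0.48 for the collagen lysyl hydroxylase gene Plod1. They included Myl12a (-0.74), a regulatory myosin light chain, Tbc1d2 (-0.70), a regulator of Rab GTPases, Mllt3 (-0.66), a transcription elongation factor gene, Zfp180 (-0.62), the receptor phosphatase gene Ptprk (-0.52) and the lysophospholipase gene Pnpla7 (-0.49). Plod1 was at -0.01 without the letter term, the only ranked gene whose difference nearly vanished there.

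Lists of striatal projection neuron genes had small medians whose sign or size depended on the animals included. Direct-pathway markers had 4 of 7 above 0 and a median of 0.01, with Tac1, the substance P precursor, at 0.12 (SE 0.18), Drd1 at 0.11 (SE 0.24), the dynorphin precursor gene Pdyn at -0.12 (SE 0.22) and Sfxn1 lowest at -0.33 (SE 0.17). Indirect-pathway markers had 3 of 4 above 0 and a median of 0.04, which was 0.22 within batch 1, -0.32 within batch 2 and -0.16 without XXY male replicate 4. Drd2 had a median of 10.3 in XXY males and 9.72 in XX males, but a modelled difference of -0.11 (SE 0.32). For Drd2 the plain medians and the model, which takes out the letter term, thus went opposite ways. Genes of DARPP-32 and cAMP signalling had 2 of 9 above 0 and a median of -0.14, with Ppp1r1b at -0.26 (SE 0.26). Their median was 0.01 within batch 1, -0.40 with 0 of 9 above 0 within batch 2, and -0.28 without XXY male replicate 4. Projection neuron transcription factors had 4 of 8 above 0 and a median of -0.01. No member of any list described here or below passed, and the smallest adjusted p among them was 0.689, beside the 0.0212% of all features that passed. With array weights 9 list members passed, among 152 features, and without the letter term 3 did, among 165.

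Interneuron markers had 6 of 11 above 0 and a median of 0.01. The somatostatin gene Sst (0.08, SE 0.12), Npy (-0.09, SE 0.17) and the GABA synthesis gene Gad1 (0.01, SE 0.15) were near 0. Calb2, which encodes the calcium-binding protein calretinin, had a lowest, median and highest value of 9.42, 11.1 and 11.7 in XXY males and 8.70, 10.1 and 11.0 in XX males, overlapping with a difference of 0.91 (SE 0.45). Lhx8, a transcription factor of cholinergic neurons, differed by 0.55 (SE 0.21), while Chat, the acetylcholine synthesis gene of the same cells, differed by -0.21 (SE 0.29). Calb2 and Lhx8 were the members at an unadjusted p below 0.05; such members are named here and below after their values were seen.

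Peptides and their receptors had 10 of 13 above 0 and a median of 0.17, with 0.25 within batch 1, 0.26 within batch 2 and 0.33 without XX male replicate 1. The members at an unadjusted p below 0.05 were the neurotensin gene Nts, at 6.43, 7.46 and 9.93 (lowest, median, highest) in XXY males and 5.39, 6.37 and 8.20 in XX males, and the vasopressin receptor gene Avpr1a. The Nts groups overlapped over most of their range, and the difference was 1.24 (SE 0.52). Avpr1a differed by 0.74 (SE 0.27) but was detected in only 4 of 9 XXY males and 2 of 8 XX males. Avp and Oxt, the hypothalamic hormones vasopressin and oxytocin, spread most, with Avp from 5.93 to 12.3 in XXY males and from 7.51 to 12.0 in XX males. Their differences were 1.66 (SE 1.12) and 1.51 (SE 0.94).

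**Figure D3:**
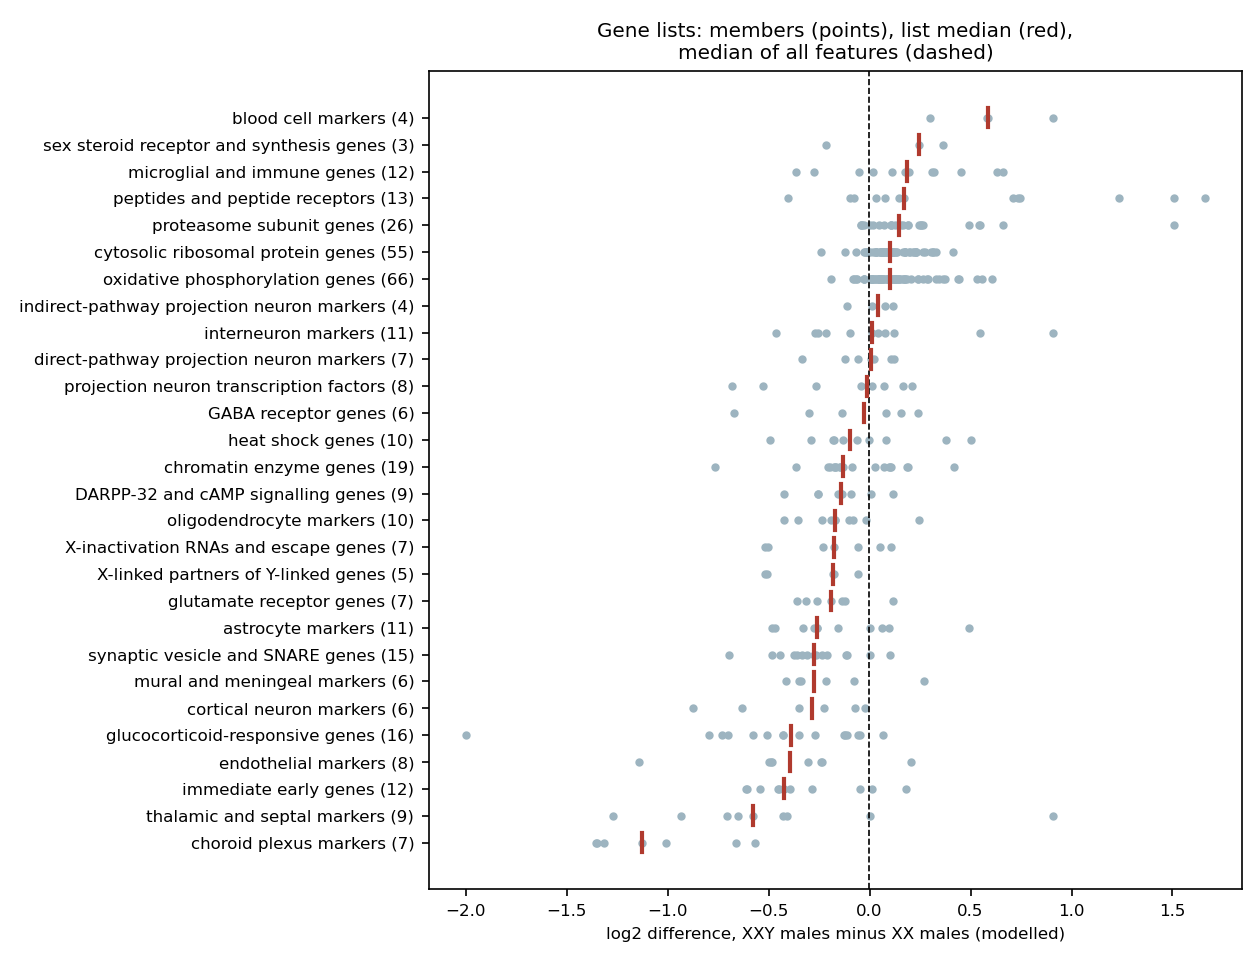
Modelled log2 difference, XXY males minus XX males (horizontal axis), of every tested member (points) of 28 gene lists, with the number tested in brackets, the list median as a red bar and the median of all features as a dashed line. Choroid plexus markers have the lowest median, -1.13, and blood cell markers the highest, 0.58.

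Immediate early genes, which neurons switch on within minutes of activity, had 2 of 12 above 0 and a median of -0.43. It was -0.13 within batch 1 and -0.77 within batch 2. Dusp1, a phosphatase gene induced by both activity and glucocorticoids, had a lowest, median and highest value of 9.46, 9.74 and 10.1 in XXY males and 9.43, 10.1 and 10.7 in XX males, overlapping with a difference of -0.43 (SE 0.17). Jun differed by -0.39 (SE 0.17), and these were the members at an unadjusted p below 0.05. Egr1 was at -0.28 (SE 0.25), and the range of the list ran from -0.61 for Egr4 to 0.18 for Npas4.

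Glucocorticoid-responsive genes had 1 of 16 above 0 and a median of -0.39, with -0.14 within batch 1 and -0.62 within batch 2. Plin4, a lipid droplet protein gene, was lowest at -2.00 (SE 0.69), with 4.70, 5.34 and 5.95 in XXY males and 4.91, 6.46 and 10.2 in XX males as lowest, median and highest values. The XX males held the wide spread here, and the probe was detected in 2 of 9 XXY males and 5 of 8 XX males. Pdk4, an inhibitor of pyruvate entry into the citric acid cycle, differed by -0.73 (SE 0.29), and Errfi1, an inhibitor of EGF receptor signalling, by -0.35 (SE 0.17). With Dusp1 these were the members at an unadjusted p below 0.05. Klf9, a glucocorticoid-induced transcription factor gene, was at -0.51 (SE 0.30), the kinase gene Sgk1 at -0.43 (SE 0.24) and the metallothionein gene Mt1 at -0.11 (SE 0.08).

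**Figure D4:**
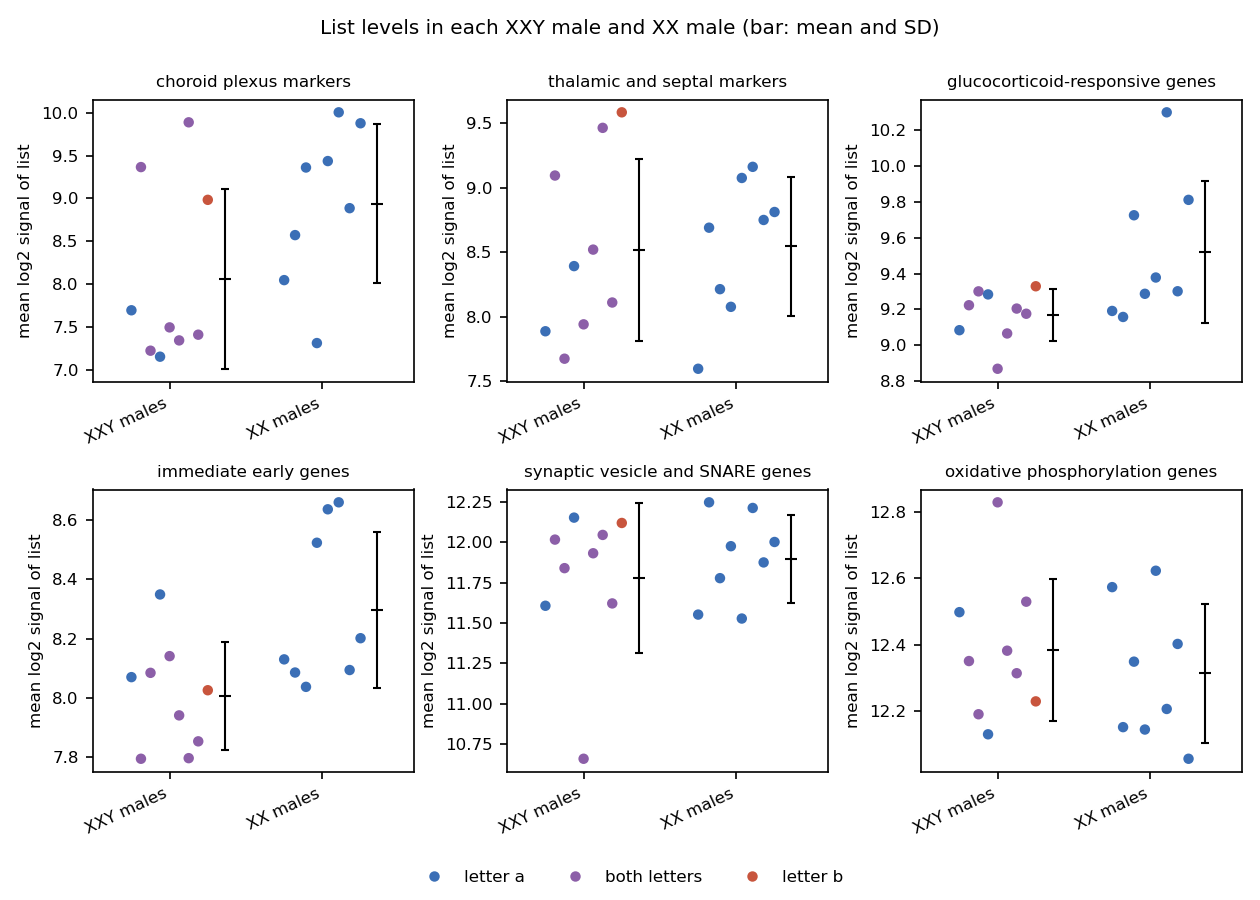
Mean normalized log2 signal over the tested members of 6 gene lists (vertical axes) in each XXY male (left) and XX male (right), coloured by code letter, with bars for the mean and SD; no letter or batch term is applied. XXY males average 9.17 and XX males 9.52 for glucocorticoid-responsive genes, the lowest point for synaptic vesicle genes is XXY male replicate 5 at 10.7, and the groups overlap in every panel.

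Genes of synaptic vesicles and the SNARE fusion machinery had 1 of 15 above 0 and a median of -0.27, from -0.70 for Cplx2 (SE 0.44) to 0.10 for Sv2b. It was -0.03 within batch 1 and -0.38 within batch 2, -0.20 without XXY male replicate 5 and -0.40 without XXY male replicate 4. Among letter a arrays of batch 1 it turned to 0.11, with 11 of 15 above 0. XXY male replicate 5 had the lowest value of Cplx1, 12.5, in a group with a median of 14.3. Glutamate receptor genes had 1 of 7 above 0 and a median of -0.19, which was -0.00 within batch 1, -0.36 within batch 2 and -0.29 without XXY male replicate 4. GABA receptor genes had 3 of 6 above 0 and a median of -0.03.

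Markers of tissue next to the striatum lay below 0 in most cases. All 7 choroid plexus markers were below 0, with a median of -1.13 that was -0.81 within batch 1 and -1.99 within batch 2. Ttr, the thyroid hormone carrier that choroid plexus makes in bulk, had a lowest, median and highest value of 11.7, 12.2 and 14.7 in XXY males and 12.4, 14.4 and 14.7 in XX males. Both groups reached the same top, while the median XXY male lay below the lowest XX male, and the difference was -1.32 (SE 0.64). The summed linear signal of the 7 genes ran from 4576 to 29334 in XXY males, median 5929, and from 6894 to 32191 in XX males, median 23459. Its part in the other results was not tested.

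Thalamic and septal markers had 2 of 9 above 0 and a median of -0.58, which was -0.59 within batch 1 and -0.06 within batch 2. Their summed signal ran from 2359 to 14479 in XXY males and from 3318 to 11356 in XX males. Cortical neuron markers had 0 of 6 above 0 and a median of -0.29, with Slc17a7 at -0.87 (SE 0.72). That median was -0.06 without XX male replicate 2, and 0.16 with 5 of 6 above 0 without the animals that have both letters. The variation within each group was wide for all 3 lists, and their part in the differences of neuronal genes was not tested.

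In some housekeeping lists most members lay slightly above 0, where 49.5% of all features were positive. The heat shock and chromatin enzyme lists, given under the other observations, had most members below 0. Oxidative phosphorylation genes had 58 of 66 above 0 and a median of 0.10, cytosolic ribosomal protein genes 46 of 55 and a median of 0.10, and proteasome subunit genes 22 of 26 and a median of 0.15. These medians were not alike in the batches, a difference that was not tested. They were -0.05, -0.05 and 0.01 within batch 1 and 0.28, 0.36 and 0.36 within batch 2. Among letter a arrays of batch 1, 23 of 66, 21 of 55 and 15 of 26 members lay above 0. Without the letter term the counts were 39 of 66, 33 of 55 and 18 of 26. The proteasome genes at an unadjusted p below 0.05 were Psmb5 (0.66), Psmd11 (0.55), Psmd14 (0.54), Psmd1 (0.49) and Psmc1 (0.19). Psmd1, a scaffold of the regulatory particle, had a lowest, median and highest value of 7.64, 8.31 and 8.85 in XXY males and 6.91, 7.80 and 8.29 in XX males, which overlap.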

How the data were processed

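Total RNA was measured on Illumina bead arrays. The authors deposited a table, not normalized between arrays, of signal intensity, detection p-value, bead standard error and bead number (treated as a score) per probe and animal, per the file headers. In 6 XXY male columns, those with both letters, some bead numbers lie midway between whole numbers; each was used as 1 animal. The authors also deposited log2 values, for which the submitters' processing notes name limma. Its XX male columns had Spearman correlations of 0.0624 to 0.0729 with their own arrays, so that table was not used. For XY male replicate 3 only detection p-values were used.

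Background was corrected with normexp on control levels inferred from detection p-values, followed by quantile normalization of 37 arrays and log2 with an offset of 16 (in limma 3.58.1 under R 4.3.3). A probe was kept if its detection p was below 0.01 in 8 or more animals, which left 12339 of 25697. Genes with several probes were read from the brightest one, giving 8444 genes and 1011 unnamed probes, 9455 features. limma's lmFit and eBayes were fitted with group, labelled batch and the share of letter b, adjusting p-values by Benjamini-Hochberg; the code was tested on simulated data. The letter term raised the part of the SE set by the design alone, before residual spread enters, 1.18-fold. Differences are XXY male minus XX male on the log2 scale; group values carry no such adjustment. Array values have no count depth: the number of arrays and signal over background limit precision.

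The comparison, lists and tests were chosen with earlier results of these data known. Named were all features that passed, the 10 named genes with the smallest p in each direction detected in at least 50% of each group, all tested sex chromosome genes, and from each other list the 3 brightest members and its extremes, given here in part.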

Additional observations from a re-analysis of the deposited data

Results flagged for a closer look

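A value was singled out where the highest or lowest animal of a group stood farther from the nearest other than Dixon's 95% critical value for that group size allows. Chance alone gives about 1 in 20, but the groups of values tested share animals and genes, so no excess is read from their count. Of 284 groups of values tested by this rule 29 had such an animal. XXY male replicate 5 was that animal in 19 of them, all on the normalized log2 scale. It was the highest for ILMN_2899599 at 11.5. It was the lowest of its group for the signalling genes Arpp21 (13.9), Ppp1r1b (12.9) and Pde1b (12.8), the transcription factor gene Bcl11b (8.93), the receptor genes Gria1 (9.00) and Gabbr1 (7.43), and the vesicle genes Cplx1 (12.5) and Syt11 (11.5).

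The same animal was lowest for Mt1 (14.3), Klf9 (10.3), Atp5b (14.6), the oligodendrocyte transcription factor gene Olig1 (11.1), the glutamate transporter gene Slc1a3 (12.9) and the microglial gene Laptm5 (8.85). Among list means it was lowest for X-linked partners of Y-linked genes (8.05), DARPP-32 and cAMP signalling genes (11.0), GABA receptor genes (7.76) and synaptic vesicle and SNARE genes (10.7).

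Other XXY males stood out in 3 cases: replicate 4 was high for Egr1 (13.1), replicate 9 low for Rplp1 (14.9) and replicate 3 low for Slc17a6 (7.97). Among XX males, 2310022A10Rik was low in replicate 8 (5.22), St6galnac2 was high in replicate 6 (7.62) and Kdm6a was high in replicate 2 (9.96). Atp5g3 was high in replicate 7 (14.7), Rplp1 was low in replicate 6 (15.0), Ttr was low in replicate 4 (12.4), and the astrocyte marker mean was low in replicate 1 (8.71). For Atp5g3 and Rplp1 all other animals of the group shared 1 value after quantile normalization.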

How the results depend on the processing

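Of 35 alternatives, 30 left 2 features past the threshold, and both probes passed in 34. Requiring detection in all 17 XXY and XX males removed both probes from testing by construction, since each was undetected in some XX males. It left 0 of 6878 features past the threshold (limma), with 373 at an unadjusted p below 0.05. Without the letter term 165 passed (131 higher, 34 lower), with array weights 152 (96 higher, 56 lower), and without the detection filter 3. The third was ILMN_1224210 (0.84, SE 0.14, limma adjusted p = 0.00817), named after its value was seen. This probe was detected in 1 of 9 XXY males, 0 of 8 XX males, 4 XY males and 0 XX females. Its mean log2 signals in these groups were 5.36, 4.77, 5.42 and 4.60. Leaving out 1 animal at a time gave 2 to 4; without XXY male replicate 4, Rnf41 (0.98) and Dctn1 (-2.31) passed too (adjusted p = 0.0374 each). Why these counts moved was not tested. ILMN_1241001 ran from 1.35 without background correction to 3.51, and ILMN_2899599 from 2.83 to 5.05. Only the 2 probes had passed in the main model, and wherever they were tested neither turned nor was lost. Of 3829 named differences recomputed, 28 newly passed and 201 had the opposite sign. Among those that did not pass, 74 moved by more than the spread between animals. Of 1049 recomputed list medians 81 had the opposite sign. Leaving out 1 animal turned or changed by over 1.5 times the medians of 21 of 30 lists, many of them near 0; the widest move of any list median was 0.35. With array weights Zfx (-0.61), Hsd17b12 (0.69), Nts (1.51), Junb (-0.74), Plin4 (-2.57), Psmb5 (0.89), Psmd1 (0.67), Hdac4 (-0.71) and Aif1 (0.61) passed among list members, and without the letter term Glul (1.12), Psmd1 (0.63) and Psmd11 (1.14). The labels give no pairing for the replicate numbers. Over 8 same-numbered pairs the correlation of deviations ran from -0.30 to 0.67; it was over 0.1 in 6 pairs but not in all, and 1 animal correlated best with its own number. With the replicate block 2 features passed. Dim probes near background have understated differences.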

Other observations

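Glia and vessels, not described above, showed no member past the threshold either (limma). Microglial and immune genes had 9 of 12 above 0 and a median of 0.19, with 0.01 within batch 1, 0.21 within batch 2 and 0.08 without XXY male replicate 8. Trem2, a lipid-sensing receptor of microglia, had a lowest, median and highest log2 signal of 8.45, 8.97 and 9.94 in XXY males and 7.90, 8.70 and 9.09 in XX males, and differed by 0.66 (SE 0.29). Aif1 differed by 0.45 (SE 0.21); these were the members at an unadjusted p below 0.05. Laptm5 was lowest of the list at -0.36 (SE 0.44). Oligodendrocyte markers had 1 of 10 above 0 and a median of -0.17, which was -0.28 without XX male replicate 1, with the myelin gene Mbp at -0.08 (SE 0.10). Astrocyte markers had 4 of 11 above 0 and a median of -0.26, and their member at an unadjusted p below 0.05, Glul (0.49), was detected in only 2 of 9 XXY males and 2 of 8 XX males. Endothelial markers had 1 of 8 above 0 and a median of -0.39, which was -0.63 without XXY male replicate 4 and -0.06 among letter a arrays of batch 1, with the glucose transporter gene Slc2a1 at -0.48 (SE 0.22) and the VEGF receptor gene Flt1 at -1.14 (SE 0.60). Mural and meningeal markers had 1 of 6 above 0 and a median of -0.28, which was 0.16 within batch 2.

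Blood cell markers had 4 of 4 above 0 and a median of 0.58, with 0.31 within batch 1, 0.77 within batch 2, 0.38 without XX male replicate 4 and 0.06 without the letter term; the highest was the globin gene Hbb-bt (0.91, SE 0.50), and the heme synthesis gene Alas2 (0.58, SE 0.28) was the member at an unadjusted p below 0.05. Chromatin enzyme genes had 8 of 19 above 0 and a median of -0.13, which was -0.03 without XX male replicate 4, from -0.76 (SE 0.29) for the histone deacetylase gene Hdac4, the member at an unadjusted p below 0.05, to 0.42 (SE 0.21) for Hdac11. Heat shock genes had 3 of 10 above 0 and a median of -0.10, with the constitutive chaperone gene Hspa8 at -0.06 (SE 0.07). Of 15 sex steroid receptor and synthesis genes 3 were tested: Hsd17b12 at 0.36 (SE 0.19), Hsd17b10 at 0.24 (SE 0.25) and Hsd17b4 at -0.22 (SE 0.13).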
